A study of Mus musculus with 2 samples.

Results

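The Hox genes of clusters A to D were described in lacZ-marked osteoblastic cells from Ebf2-deficient (Ebf2-/-) and heterozygous (Ebf2+/-) mouse embryos. The members were all probe sets, the short oligonucleotide groups that report a transcript on the Affymetrix Mouse Genome 430 2.0 array, whose platform annotation names exactly 1 gene and that gene is Hoxa, Hoxb, Hoxc or Hoxd with a number. This gave 48 of the 45101 probe sets, for 33 of the 18194 genes that such single-gene probe sets cover. No signal of their own is given for Hox genes without such a probe set.

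Both groups were C57Bl/6 embryos of stage E18.5, and the cells came from tibia and femur. Cells of both genotypes carried the lacZ marker at Ebf2, were stained with FDG, a substrate that beta-galactosidase turns fluorescent, were sorted for it and were expanded without passage in alpha MEM with 10% serum. There was 1 array of Ebf2-/- cells and 1 array of Ebf2+/- cells. The stated number of mice is 3 per genotype, and nothing says if the RNA of several mice was combined, so no spread between animals could be computed and no p-value is given.

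Hox proteins are homeodomain transcription factors that give cells their position along the body and limb axes. Their genes lie in 4 clusters, and the members with the same number in different clusters are paralogues that arose by duplication. Genes at the low-numbered end act in the head and front trunk and respond to retinoic acid, whereas those numbered 9 to 13 act in the rear trunk and in the segments of the limb skeleton. Mesenchymal cells are known to keep a Hox code of the place they came from when they are cultured.

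Most Hox genes were not above background in these cells. Of the 48 probe sets 9 were above background on at least 1 array, against 58.4% of all single-gene probe sets. Of 33 genes, 8 were above background on at least 1 array (24.2%), against 64.8% of all genes. On the Ebf2-/- array 6 Hox genes were above background (18.2%; 58.0% of all genes), and on the Ebf2+/- array 4 were (12.1%; 62.1% of all genes). Hoxb4 and Hoxd8 were the 2 genes above background on both arrays, where 55.3% of all genes were. Background was set by 86 probe sets of chemosensory receptor genes (smell, vomeronasal organ and taste), whose 95th percentile gave a floor of 23.8 on the Ebf2-/- array and 17.8 on the Ebf2+/- array. By construction about 5% of those receptor probe sets pass on each array, and 8.14% passed on at least 1.

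**Figure D1:**
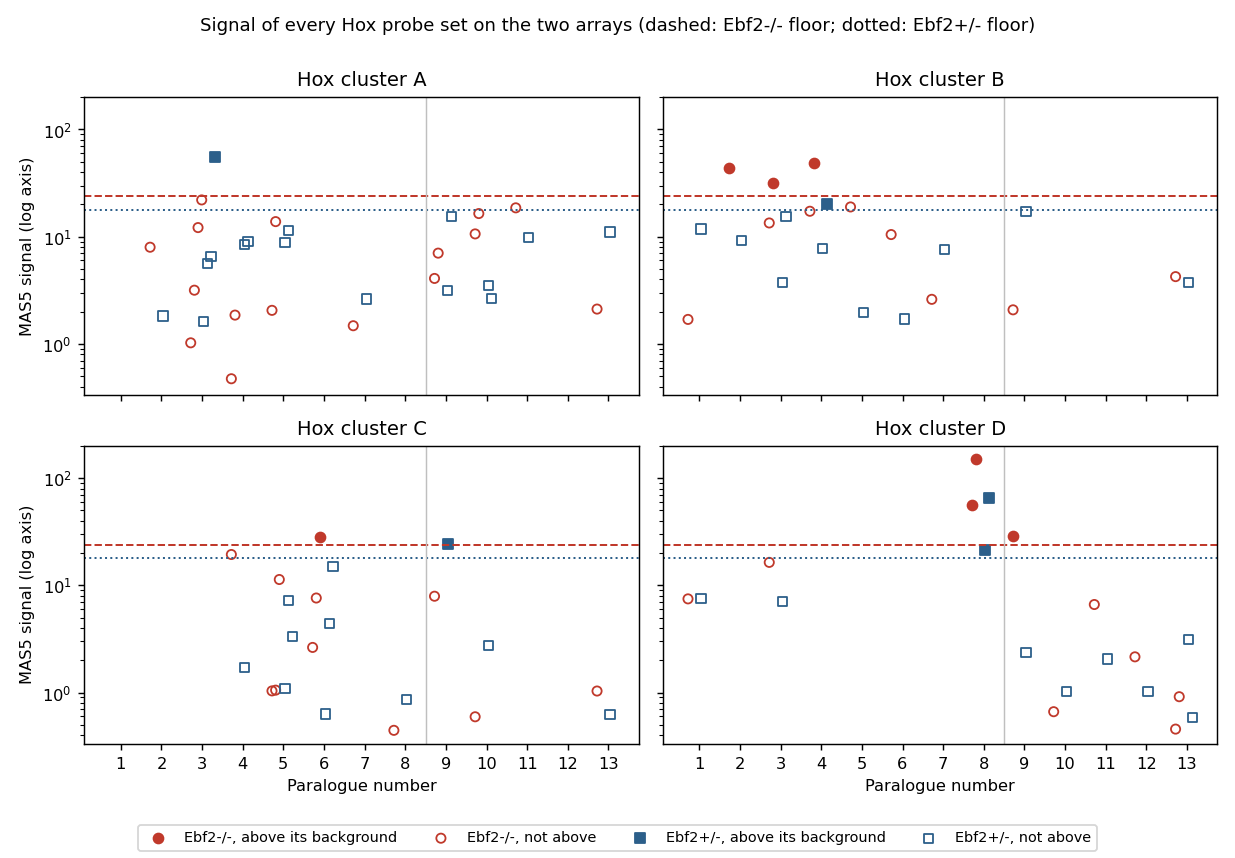
MAS5 signal (log axis) of each of the 48 Hox probe sets against paralogue number, 1 panel per cluster, with Ebf2-/- as circles and Ebf2+/- as squares; filled symbols are above the floor of their own array (dashed line 23.8 for Ebf2-/-, dotted line 17.8 for Ebf2+/-) and the grey line parts numbers 1 to 8 from 9 to 13. Filled symbols are few: 7 probe sets on the Ebf2-/- array and 5 on the Ebf2+/- array.

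By paralogue number, 6 of the 19 genes numbered 1 to 8 were above background on at least 1 array (31.6%), against 2 of the 14 genes numbered 9 to 13 (14.3%). On the Ebf2-/- array alone the counts were 5 of 19 and 1 of 14, and on the Ebf2+/- array 3 of 19 and 1 of 14. Both high-numbered genes were ninth paralogues, Hoxc9 and Hoxd9. No gene numbered 10 to 13 was above background on either array, with 10 such genes on the array. These include Hoxa11, Hoxd11, Hoxa13 and Hoxd13, which in mouse are needed for the lower segments and the digits of the limb. With 1 array for each genotype, the difference between the number ranges was not tested.

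By cluster, 1 of 9 genes of cluster A, 3 of 9 of cluster B, 2 of 7 of cluster C and 2 of 8 of cluster D were above background on at least 1 array. The 3 genes of cluster B, Hoxb2, Hoxb3 and Hoxb4, are direct neighbours on chromosome 11 in the reference order. Hoxd8 and Hoxd9 are neighbours on chromosome 2, whereas Hoxc6 and Hoxc9 on chromosome 15 have Hoxc8 between them, which was below background. In cluster A, on chromosome 6, only Hoxa3 was above background, and only on the Ebf2+/- array.

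**Figure D2:**
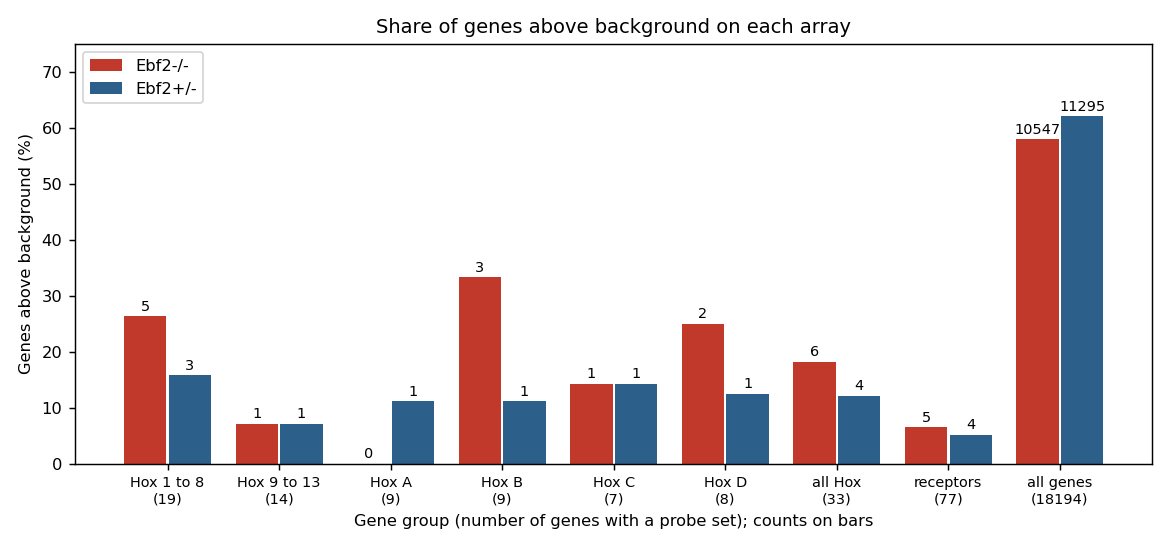
Percentage of genes above background on the Ebf2-/- array (left bars) and the Ebf2+/- array (right bars) for the Hox genes by paralogue range and cluster, for all Hox genes, for the 77 receptor genes behind the floor and for all 18194 genes; the number above a bar is its count of genes. Each Hox group stays below the 58.0% and 62.1% of all genes.

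Among the 8 measured genes, meaning those above background on at least 1 array, 6 had the higher signal in Ebf2-/- cells and 2 the lower. Of all 11785 measured genes 52.1% had the higher floor-set signal in Ebf2-/- cells. The Ebf2-/- floor is the higher one. Some genes seen on the Ebf2+/- array only therefore count as higher in that share although their deposited signal was lower. The background filter fixed the direction of 6 of the 8 Hox genes, so nothing is read from their split. Of the higher genes 4 passed on the Ebf2-/- array only. Both lower genes passed on the Ebf2+/- array only, with signals that also exceed the Ebf2-/- floor. At least 2-fold higher were 3 Hox genes (Hoxb2, Hoxb4 and Hoxd8), with 6.30% of all measured genes as background, and at least 2-fold lower was 1 (Hoxa3), with 3.46%. Rescaled to the spike-in transcripts, these shares of all measured genes were 4.80% and 4.73%, and the same 4 Hox genes passed 2-fold. The floor-set median log2 ratio of Ebf2-/- over Ebf2+/- was 0.76 for the 8 Hox genes and 0.03 for all measured genes. The Hox median lies between the bounds of Hoxd9 and Hoxb3 and is a description only. Of the receptor genes that set the background, 6 were measured, all floor-set higher in Ebf2-/- cells, with a median of 0.58. Nothing particular to the Hox genes is therefore read from the 0.76. As a scale for these ratios, probe sets that report the same gene scattered with an SD of 0.44 in log2 ratio (a factor of 1.36, pooled across 4119 genes); animals and cultures add variation that this does not hold. Values under a floor were set to the floor, so a ratio is a bound where 1 array only was above it.

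Hoxd8, a cluster D gene of the trunk, was the member with the firmest signal, since both of its probe sets were above background on both arrays. One probe set read 151 in Ebf2-/- cells and 65.5 in Ebf2+/- cells, 2.30-fold higher (log2 ratio 1.20). The other read 55.9 in Ebf2-/- cells and 21.3 in Ebf2+/- cells, 2.62-fold higher (log2 ratio 1.39). This second probe set is of the type _s_at, which may cross-hybridize. The ratios of the 2 probe sets differed by less than the pooled SD of 0.44. Its neighbour Hoxd9, a gene of the upper limb segment and the lumbar and sacral spine, read 28.8 in Ebf2-/- cells and 2.35 in Ebf2+/- cells. The ratio of Hoxd9 is at least 1.62-fold higher, because the Ebf2+/- signal was below the floor and the Ebf2-/- signal stood only 1.21-fold above its own.

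In cluster B, Hoxb4 was above both floors, and Hoxb2 and Hoxb3 were above background on the Ebf2-/- array only, which fixes their direction. Hoxb4, also known as a factor that expands blood stem cells when it is forced on, read 48.6 in Ebf2-/- cells and 20.2 in Ebf2+/- cells by its brighter probe set, 2.40-fold higher (log2 ratio 1.26). Its second probe set, designed on the same transcript record, read 17.3 in Ebf2-/- cells and 7.73 in Ebf2+/- cells, below the floor on both arrays. Hoxb2, a hindbrain patterning gene, read 43.9 in Ebf2-/- cells and 9.25 in Ebf2+/- cells and was at least 2.46-fold higher. Hoxb3, which lies beside them and acts in the hindbrain and neck, read 31.6 in Ebf2-/- cells and 15.5 in Ebf2+/- cells, at least 1.78-fold higher, and its second probe set was below the floor on both. In the reference, the span of Hoxb3 includes that of Hoxb4, and the strand and position of each probe set within them were not used here.

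The 250 bases before the start of Hoxb4 and Hoxd8 are shown because these are the genes with a measured ratio, and those of Hoxd13, below background on both arrays, because they hold the core of the EBF recognition motif, CCCNNGGG, printed in capitals. The sequences are from RefSeq (GRCm38.p6), on the strand of the gene, at chr11:96318017-96318266 (plus strand, within the span of Hoxb3), chr2:74704365-74704614 (plus strand, within the span of the predicted gene Gm38462) and chr2:74667975-74668224 (plus strand).
Hoxb4: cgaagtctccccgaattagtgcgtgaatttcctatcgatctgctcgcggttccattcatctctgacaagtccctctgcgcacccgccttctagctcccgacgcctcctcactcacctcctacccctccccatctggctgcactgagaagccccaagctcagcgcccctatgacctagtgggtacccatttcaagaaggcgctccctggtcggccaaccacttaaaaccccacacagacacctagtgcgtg
Hoxd8: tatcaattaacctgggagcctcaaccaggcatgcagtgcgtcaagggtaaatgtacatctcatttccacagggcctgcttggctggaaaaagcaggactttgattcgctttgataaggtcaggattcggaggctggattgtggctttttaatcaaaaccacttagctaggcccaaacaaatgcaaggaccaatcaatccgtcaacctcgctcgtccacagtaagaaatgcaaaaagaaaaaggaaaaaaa
Hoxd13: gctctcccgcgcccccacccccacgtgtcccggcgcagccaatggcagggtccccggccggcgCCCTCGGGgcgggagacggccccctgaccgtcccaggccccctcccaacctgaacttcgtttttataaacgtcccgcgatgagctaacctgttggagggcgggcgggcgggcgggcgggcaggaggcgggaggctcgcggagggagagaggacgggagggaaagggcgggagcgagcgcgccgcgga
Promoter windows of 300 bases, from 250 before to 50 after the start, were found for 22 Hox genes (24 windows). The palindrome CCCNNGGG, which reads the same on both strands, occurred in 4 of these 24 windows and in 13.7% of all 32851 windows. The 4 were those of Hoxa6, Hoxa7, Hoxc4 and Hoxd13. None of the 4 windows of measured genes (Hoxa3, Hoxb4, Hoxd8 and Hoxd9) held it. The longer form with a T before and an A after that core occurred in 1 Hox window (Hoxa6) and in 0.904% of all windows. The core TTTATNG, searched on both strands and bound by CDX and high-numbered Hox proteins, occurred in 2 Hox windows (Hoxb8 and Hoxd4) and in 10.9% of all. A match describes the letters of a window and is not a site of binding.

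In cluster C, Hoxc6, a gene of the thoracic region, read 28.3 in Ebf2-/- cells and 15.0 in Ebf2+/- cells, at least 1.59-fold higher. That value rests on a probe set of the type _x_at, which may cross-hybridize, and the other 2 probe sets of Hoxc6 were below the floor on both arrays. Hoxc9, which acts in the lower thoracic region, went the other way. It read 7.92 in Ebf2-/- cells and 24.6 in Ebf2+/- cells, but its ratio is only bounded as at least 1.03-fold lower, because the floor of the Ebf2-/- array is nearly as high as the Ebf2+/- signal.

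Hoxa3, a gene of the pharyngeal arches and neck, was the member with the lower signal in Ebf2-/- cells by more than 2-fold. It read 22.0 in Ebf2-/- cells, just under the floor of 23.8, and 55.6 in Ebf2+/- cells, at least 2.33-fold lower. Of its 4 probe sets only this one was above background. A second, of the type _s_at and designed on the same transcript record, read 12.2 in Ebf2-/- cells and 6.50 in Ebf2+/- cells, below both floors. The remaining pair was also below both floors, with signals up to 3.17 in Ebf2-/- cells and 5.65 in Ebf2+/- cells.

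**Figure D3:**
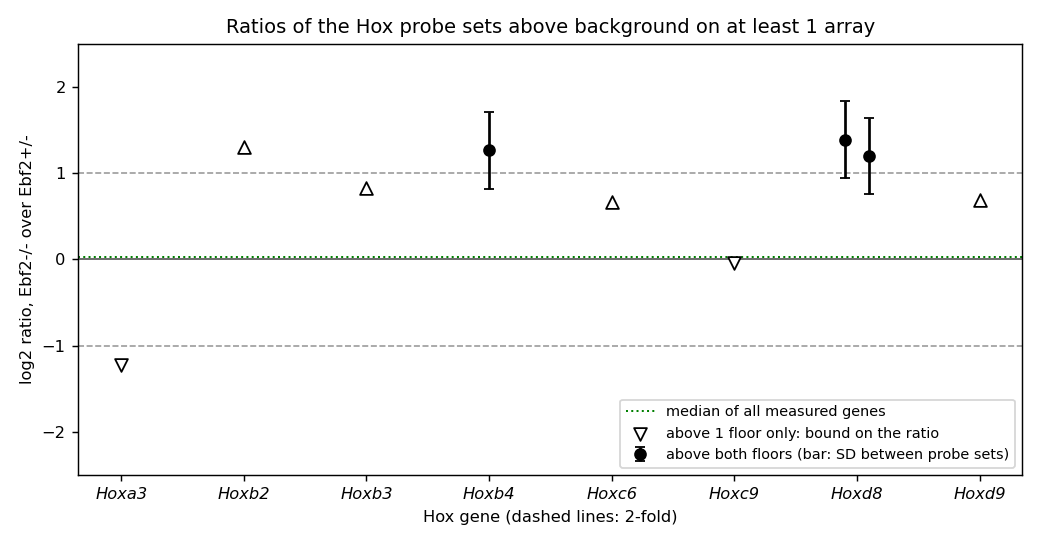
Log2 ratio of Ebf2-/- over Ebf2+/- for the 9 probe sets of the 8 measured Hox genes. Filled circles were above both floors, with a bar of 1 pooled SD between probe sets of a gene (0.44). Open triangles were above 1 floor only and are bounds, which point up where Ebf2-/- is higher and down where it is lower. The circles of Hoxb4 and Hoxd8 lie between 1.20 and 1.39, and Hoxa3 lies below the lower 2-fold line.

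Detection on 1 array only was counted next. Of the measured Hox genes, 4 (Hoxb2, Hoxb3, Hoxc6 and Hoxd9) were above background on the Ebf2-/- array only and 2 (Hoxa3 and Hoxc9) on the Ebf2+/- array only. Among all measured genes 4.16% were seen on the Ebf2-/- array only and 10.5% on the Ebf2+/- array only. Several of these signals were close to background. Above the 99th percentile of the receptor probe sets, 32.3 on the Ebf2-/- array and 19.6 on the Ebf2+/- array, were only Hoxb2, Hoxb4 and Hoxd8 in Ebf2-/- cells, and Hoxa3, Hoxb4, Hoxc9 and Hoxd8 in Ebf2+/- cells.

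The other 25 genes had no probe set above background. Taking 1 probe set per gene, they ranged from 0.444 to 19.4 with a median of 4.24 in Ebf2-/- cells, and from 0.628 to 17.2 with a median of 3.15 in Ebf2+/- cells. Their deposited signals were higher in Ebf2-/- cells for 13 and lower for 12, and no order is read from values below the floor. Nearest to the floor in Ebf2-/- cells were Hoxc4 (19.4), Hoxb5 (18.9) and Hoxa11 (18.6). Nearest to it in Ebf2+/- cells were Hoxb9 (17.2) and Hoxa9 (15.4). Those numbered 1 to 8 were Hoxa2, Hoxa4, Hoxa5, Hoxa7, Hoxb1, Hoxb5, Hoxb6, Hoxb7, Hoxc4, Hoxc5, Hoxc8, Hoxd1 and Hoxd3. Those numbered 9 to 13 were Hoxa9, Hoxa10, Hoxa11, Hoxa13, Hoxb9, Hoxb13, Hoxc10, Hoxc13, Hoxd10, Hoxd11, Hoxd12 and Hoxd13. Beyond the number of arrays, a bulk signal cannot tell fewer Hox-expressing cells from less Hox RNA in each cell.

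The origin of the cells was checked with genes of limb identity. Pitx1 and Tbx4, which mark the hindlimb, and Tbx5, which marks the forelimb, were below background on both arrays by every probe set, with signals up to 11.8 for Pitx1, 4.18 for Tbx4 and 8.82 for Tbx5 in Ebf2-/- cells and up to 15.4, 13.7 and 2.70 in Ebf2+/- cells. The limb mesenchyme factors Prrx1 and Prrx2, chosen after their values were seen, were well above it. Prrx1 read 2868 in Ebf2-/- cells and 2295 in Ebf2+/- cells, and Prrx2 read 1292 in Ebf2-/- cells and 1401 in Ebf2+/- cells. Of 16 genes of limb patterning 9 were measured, and 4 of the 9 were above background on the Ebf2-/- array only. Of the 9, 2 passed 2-fold upwards in Ebf2-/- cells and 0 downwards (median log2 ratio 0.32). Over all measured genes 6.30% passed upwards and 3.46% downwards, with a median of 0.03. The homeobox gene Shox2, which acts in the upper limb segment, was seen only in Ebf2-/- cells at 216 (17.0 in Ebf2+/- cells). En1, a homeobox gene of the ventral limb, read 47.2 in Ebf2-/- cells and 17.7 in Ebf2+/- cells, at least 2.65-fold higher. The T-box genes Tbx3 (26.5 in Ebf2-/- cells, 10.1 in Ebf2+/- cells) and Tbx2 (25.8 and 10.4 in the same order) were just above the floor in Ebf2-/- cells only.

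The TALE proteins of the Pbx, Meis and Pknox families bind DNA together with Hox proteins. Of 8 such genes with a probe set 7 were above background on both arrays. Of the 7, 1 passed 2-fold upwards in Ebf2-/- cells and 0 downwards (6.30% and 3.46% of all measured genes). Their median log2 ratio was 0.48, and 0.03 over all measured genes. Meis3 read 93.4 in Ebf2-/- cells and 42.1 in Ebf2+/- cells (2.22-fold higher), and Meis1 read 89.6 in Ebf2-/- cells and 47.0 in Ebf2+/- cells (1.91-fold). Without probe sets that may cross-hybridize, 0 TALE genes passed 2-fold upwards, and Meis1 stood at a log2 ratio of 0.41. Pknox1 and Pknox2 were each 1.40-fold higher. Pbx3, also chosen after its values were seen, read 335 in Ebf2-/- cells and 351 in Ebf2+/- cells. Pbx4 was below background on both arrays.

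Polycomb proteins keep Hox genes silent, and Trithorax proteins keep them active. Polycomb genes were measured for 15 members, with 2 higher in Ebf2-/- cells by 2-fold or more and 0 lower (6.30% and 3.46% of all measured genes). The floor-set median log2 ratio was 0.16, and 0.03 over all measured genes. That 0.16 is the value of Cbx8, which was above background on the Ebf2+/- array only and has no fold to give. Its deposited signal was lower in Ebf2-/- cells, so no direction is read from this median. With spike-in scaling 1 Polycomb gene passed 2-fold downwards. Upwards, 3 passed without probe sets that may cross-hybridize, and 1 as a mean over probe sets. Ring1, a ubiquitin ligase of Polycomb repressive complex 1, read 189 in Ebf2-/- cells and 31.0 in Ebf2+/- cells, 6.09-fold higher. Pcgf2, another subunit of that complex, read 95.9 in Ebf2-/- cells and 34.2 in Ebf2+/- cells, 2.81-fold higher, but was under 2-fold as a mean over its 2 probe sets (log2 ratio 0.95). Phc1, a structural subunit of it, read 102 in Ebf2-/- cells and 204 in Ebf2+/- cells, and the recruiting factor Jarid2 read 104 in Ebf2-/- cells and 58.1 in Ebf2+/- cells, both under 2-fold. The methyltransferase Ezh2, chosen after its values were seen, read 279 in Ebf2-/- cells and 206 in Ebf2+/- cells. All 12 genes of the Trithorax and insulation list were above background on both arrays and none reached 2-fold either way (median 0.20). The demethylase Kdm6a, which removes the Polycomb mark, had the widest ratio of these, 1.89-fold higher (124 in Ebf2-/- cells, 65.8 in Ebf2+/- cells).

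Retinoic acid, Cdx proteins and Gdf11 set Hox expression in the embryo. Among 13 measured genes 4 passed 2-fold upwards in Ebf2-/- cells and 1 downwards, beside 6.30% and 3.46% of all measured genes. Without probe sets that may cross-hybridize, 2 passed upwards. The median log2 ratio was 0.34, and 0.03 over all measured genes. Crabp1, which binds retinoic acid in the cytoplasm, read 495 in Ebf2-/- cells and 58.0 in Ebf2+/- cells, 8.54-fold higher. The retinoic acid synthesizing enzyme Aldh1a2 read 134 in Ebf2-/- cells and 34.7 in Ebf2+/- cells, 3.87-fold higher, and its relative Aldh1a3 was 2.14-fold higher, but under 2-fold as a mean over its probe sets (log2 ratio 0.62) and with spike-in scaling. The receptor Rara read 67.8 in Ebf2-/- cells and 19.4 in Ebf2+/- cells, 3.49-fold higher, with the Ebf2+/- value just above the floor. The lower gene, named after its values were seen, was another enzyme of that step, Aldh1a1, with 489 in Ebf2-/- cells and 1023 in Ebf2+/- cells (2.09-fold lower), and it was under 2-fold with lowess scaling. Cdx1, Cdx2 and Cdx4 were below background on both arrays.

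Genes described elsewhere as Hox targets were measured for 7 members. Of these, 3 passed 2-fold upwards in Ebf2-/- cells and 1 downwards, beside 6.30% and 3.46% of all measured genes. The median log2 ratio was 0.86, and 0.03 over all measured genes. The ephrin receptors Epha4 (111 in Ebf2-/- cells, 48.4 in Ebf2+/- cells) and Epha3 (783 and 360.0 in the same order) were 2.29-fold and 2.17-fold higher. Epha4 was under 2-fold as a mean over its probe sets (log2 ratio 0.61), and Epha3 with spike-in scaling. Six2, a homeobox gene of kidney and connective tissue progenitors, read 477 in Ebf2-/- cells and 208 in Ebf2+/- cells, 2.29-fold higher. The neurotrophic factor Gdnf read 3.42 in Ebf2-/- cells and 50.8 in Ebf2+/- cells, at least 2.13-fold lower.

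Genes that lie beside the clusters were measured for 15 of 20 members. Of these, 2 passed 2-fold upwards in Ebf2-/- cells and 0 downwards, beside 6.30% and 3.46% of all measured genes. The median log2 ratio was -0.02, and 0.03 over all measured genes. Both higher genes lie near cluster C on chromosome 15. Calcoco1, a transcriptional coactivator, read 122 in Ebf2-/- cells and 45.6 in Ebf2+/- cells (2.68-fold). Cbx5, which encodes a heterochromatin protein, read 437 in Ebf2-/- cells and 181 in Ebf2+/- cells (2.41-fold). Both were under 2-fold as a mean over their probe sets, at log2 ratios of 0.92 for Calcoco1 and 0.44 for Cbx5. Beside cluster B, Snx11 was 1.93-fold higher, and beside cluster D, Lnpk was 1.46-fold lower. Evx1 and Evx2, the homeobox genes at the ends of clusters A and D, were below background on both arrays.

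**Figure D4:**
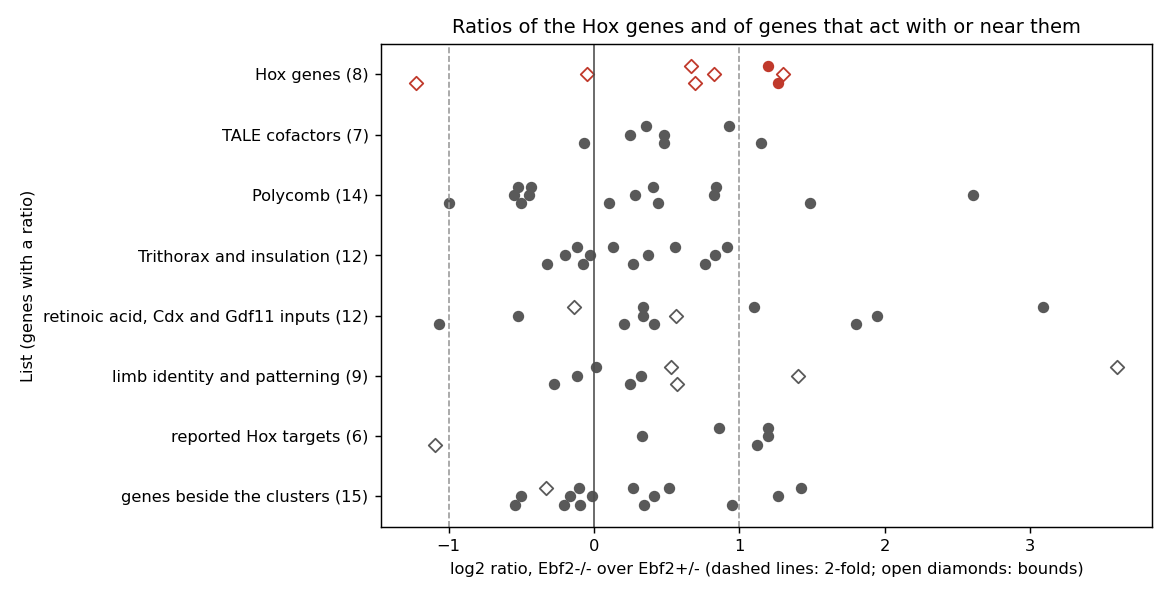
Log2 ratio of Ebf2-/- over Ebf2+/- for each gene with a ratio, by list, with the number of such genes in brackets; filled circles were above background on both arrays, open diamonds on 1 array only (bounds), and dashed lines mark 2-fold. Of the 8 Hox genes only Hoxb4 and Hoxd8 are filled, whereas all 12 genes of the Trithorax and insulation list are.

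Markers of other cell types differed between the same arrays. Over all measured genes, 6.30% were at least 2-fold higher in Ebf2-/- cells and 3.46% at least 2-fold lower. Of 14 macrophage and leukocyte markers 13 were at least 2-fold lower in Ebf2-/- cells (summed signal 1941 in Ebf2-/- cells, 8441 in Ebf2+/- cells), with Itgam below background on both. Of 10 chondrocyte markers 6 were at least 2-fold lower (3816 in Ebf2-/- cells, 14866 in Ebf2+/- cells), with Matn1 and Col10a1 below background and Matn3 above it by 1 probe set on the Ebf2+/- array only. Sox9, above background on both arrays, was 1.02-fold lower by its brightest probe set. Of 6 Schwann cell and neuron markers 4 were lower (382 in Ebf2-/- cells, 1141 in Ebf2+/- cells), and of 5 adipocyte markers 4 were higher and 1 lower (1090.4 in Ebf2-/- cells, 207 in Ebf2+/- cells). Without probe sets that may cross-hybridize, 2 adipocyte markers passed 2-fold upwards. Of the blood progenitor markers Kit, Gata1, Tal1 and Myb were below background on both arrays, while Cd34 and Gata2 were above it. Of 6 endothelial markers 2 were measured, with 1 at least 2-fold higher in Ebf2-/- cells and 0 at least 2-fold lower. Of 6 skeletal muscle markers 1 was measured, and it was at least 2-fold higher. Of 7 osteoblast lineage markers 4 were above background on both arrays, 2 of them at least 2-fold higher in Ebf2-/- cells and 0 at least 2-fold lower (median log2 ratio 0.91; summed signal of the 7, 27915 in Ebf2-/- cells and 14204 in Ebf2+/- cells). Runx2, Spp1 and Bglap had no single-gene probe set. Col1a1 was 2.33-fold and Alpl 2.04-fold higher, Col1a2 was 1.75-fold higher and Sp7 1.57-fold lower, and Ibsp, Dmp1 and Phex were below background on both. Col1a1 was under 2-fold as a mean over its probe sets (log2 ratio 0.37), and Alpl with each of the 3 scalings. RNA integrity, read from the 3' over 5' signal ratio, differed as well. That ratio was 2.79 in Ebf2-/- cells and 1.97 in Ebf2+/- cells for beta-actin. For Gapdh it was 1.60 in Ebf2-/- cells and 1.30 in Ebf2+/- cells. The part of these differences in the Hox ratios was not tested.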

How the data were processed

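The authors deposited 1 linear intensity per probe set and array, made with MAS5, per the submitters' processing notes, which name no version. With the lowest and highest 2% left out, the mean of the authors' intensities was 100.0 on both arrays, so each array had been scaled to a common target, and a change common to most genes would be hidden. Precision is limited by there being 1 array per genotype.

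Genes were named from the platform annotation: 34958 probe sets had 1 symbol, 932 several and 9211 none. The brightest probe set by mean log2 signal stood for its gene. A signal counted as above background when it exceeded the 95th percentile of the receptor probe sets of its array. Signals under it were set to it before the log2 ratio was taken, "at least" marks genes above background on 1 array only, and no fold is given where that signal does not exceed the floor of the other array. Measured genes without a fold still enter the medians at their floor-set value. No test was possible with 1 array per genotype. All Hox genes above background are named with both signals; from each other list, up to 4 genes with the widest ratios are named, and any other gene above background given with signals is marked as chosen after its values were seen. The members, lists and rules were chosen with earlier results of these data known. Sequences and gene order came from RefSeq (GRCm38.p6). The calculations used Python 3.11.15, numpy 2.4.6, pandas 2.3.3 and statsmodels 0.14.6, and were tested on simulated data. The alternatives were quantile, spike-in and lowess scaling, other floors, none, a pseudocount of 50, the mean over probe sets, and leaving out probe sets that may cross-hybridize. The comparison of Hox proteins was not done, as no protein sequences were used here.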

Additional observations from a re-analysis of the deposited data

How the results depend on the processing

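The split of 6 higher and 2 lower Hox genes was unchanged after quantile, spike-in and lowess scaling. It was also unchanged with the pseudocount of 50 and with no floor. Both of these settings keep the same 8 genes and the sign of the deposited difference, so the split could not change. By floor-set ratio, 4 were higher and 1 lower with the 99th percentile as floor, and 10 and 2 with the array median. As a mean over probe sets, 7 were higher and 1 lower. Spike-in scaling lowers every log2 ratio by 0.13 before the floor is set. The smallest positive Hox ratio was 0.67 (Hoxc6), so that scaling could not change the split of 6 and 2 either. Quantile scaling keeps the order of signals within each array, and no support is read from the unchanged split. With no floor, 5 Hox genes passed 2-fold upwards in Ebf2-/- cells and 2 downwards, and the medians were 0.99 for numbers 9 to 13, -0.36 for cluster C and 2.41 for cluster D. With a pseudocount of 50, 0 Hox genes passed 2-fold either way, and the medians were 0.40 for numbers 1 to 8, -0.55 for cluster A, 0.49 for cluster B and -0.047 for cluster C. With the 99th percentile as floor, 3 Hox genes were above background in Ebf2-/- cells and 0 were 2-fold lower, the floor-set value of Hoxc9 was 0.40 with no fold to give, and the median of genes beside the clusters was 0.11. With the array median as floor, 10 were above background in Ebf2-/- cells and the cluster A median was -0.57. That floor let 8 genes numbered 1 to 8 and 4 numbered 9 to 13 pass on at least 1 array, Hoxa11 among them. As a mean over probe sets, Hoxa3, the only measured gene of cluster A, stood at 0.0080, since each probe set below both floors enters at their ratio, a log2 value of 0.42. The same setting left 0 Hox genes 2-fold lower, put Hoxb4 at 0.84 by the same construction, the genes beside the clusters at a median of 0.16 and Gata2 at 0.29, and left Pcgf2, Aldh1a3, Epha4, Calcoco1, Cbx5 and Col1a1 under 2-fold. After lowess scaling the medians were -0.10 for numbers 9 to 13 and -0.11 for cluster C, and Hoxb2 was under 2-fold; without probe sets that may cross-hybridize cluster C stood at -0.045. The cause of these shifts was otherwise not tested. Over all genes, the counts at least 2-fold higher and lower were 742 and 408, 566 and 557 with spike-in scaling, 997 and 932 without a floor, 280 and 134 with the pseudocount, and 536 and 241 as a mean over probe sets. The other lists were put through these alternatives after their values had been seen. No paired analysis was possible because each genotype has 1 array.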

Other observations

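Of the probe sets whose annotation names several Hox genes, 2 for Hoxd4 with Hoxd3 and 1 for Hoxb8 with Hoxb7, 0 were above background. Their signals ranged from 2.17 to 15.2 in Ebf2-/- cells and from 0.588 to 6.18 in Ebf2+/- cells. Antisense and other noncoding RNAs of the clusters with a probe set of their own, Hoxa11os, Hoxb5os and Hoxd3os1, were below background on both arrays by every probe set. By its brighter probe set where there are several, Hoxa11os read 12.5 in Ebf2-/- cells and 11.0 in Ebf2+/- cells, Hoxb5os 0.676 in Ebf2-/- cells and 8.61 in Ebf2+/- cells, and Hoxd3os1 11.8 in Ebf2-/- cells and 5.25 in Ebf2+/- cells.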
